A study of Mus musculus with 2 samples.

Results

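Ncam1, Ncam2, St8sia2 and St8sia4 encode the neural cell adhesion molecules and the enzymes that polymerise polysialic acid on them. The 4 genes were chosen by symbol from the 33696 genes of the deposited tables, and each matched 1 row. The rule uses no measured value, but it was set with earlier results of these data known. Their transcripts were counted in nuclei of the mouse hippocampus at postnatal day 19 by droplet single-nucleus RNA sequencing. The control library came from mice with the genotype Cicflox/flox, in which the gene for the transcriptional repressor Capicua carries loxP sites. The other library came from mice with the genotype Emx1-Cre; Cicflox/flox and is labelled knockout. Emx1-Cre recombines in progenitors of the dorsal forebrain, which give rise to excitatory neurons and many glia of the hippocampus but not to most inhibitory interneurons or to microglia. Each library was 1 pool of tissue from 3 mice, 2 males and 1 female, so there was no replicate of either genotype and no difference could be tested. All intervals are 95% intervals for counting error and leave out variation between mice and between library preparations.

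NCAM proteins are members of the immunoglobulin superfamily that bind one another across the gap between neighbouring cells and signal through partners such as Fyn and FGF receptors. Polysialic acid, a long negatively charged sugar chain, is built almost exclusively on the Ncam1 protein and weakens adhesion, which helps newborn neurons migrate and axons to separate from one another. St8sia2 is the polysialyltransferase that prevails in the embryonic and young brain and St8sia4 the one that persists in the adult. In the hippocampus polysialic acid marks newborn dentate granule neurons and their mossy fibers, the axons that reach CA3, and mice without Ncam1 or without St8sia2 have misplaced mossy fiber terminals. Ncam2 is a related adhesion molecule of axons and dendrites that is not known as a main carrier of polysialic acid. The title of the series names the targeting of mossy fibers to CA3, and the comparison asks how these transcripts differ with the Cic genotype.

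St8sia2 and St8sia4 are the members that differed most between the libraries in CA1-like nuclei, so the DNA before their transcript starts is shown. The RefSeq promoter table, on GRCm38.p6, held 3 of the 4 members (Ncam2, St8sia2 and St8sia4). Each line gives the 250 bases before the start, 5′ to 3′ on the gene's own strand, with CpG dinucleotides in capitals.
St8sia2, chr7:74013683-74013932, minus strand: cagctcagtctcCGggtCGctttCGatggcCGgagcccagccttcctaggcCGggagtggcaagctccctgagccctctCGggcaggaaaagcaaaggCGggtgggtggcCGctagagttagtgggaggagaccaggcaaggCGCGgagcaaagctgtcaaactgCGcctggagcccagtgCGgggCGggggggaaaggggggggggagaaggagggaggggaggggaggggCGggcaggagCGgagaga
St8sia4, chr1:95667595-95667844, minus strand: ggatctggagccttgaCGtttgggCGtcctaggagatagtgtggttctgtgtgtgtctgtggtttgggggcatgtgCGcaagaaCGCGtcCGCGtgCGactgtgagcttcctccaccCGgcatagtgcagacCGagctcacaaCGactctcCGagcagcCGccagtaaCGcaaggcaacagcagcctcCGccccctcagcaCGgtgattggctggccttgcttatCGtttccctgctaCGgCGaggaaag
The St8sia2 stretch has 15 CpG and 68.8% G or C, and the St8sia4 stretch has 19 CpG and 60.4% G or C. Ncam2 has 32 CpG and 75.2% G or C in the same window. The medians over all 32851 promoters of the table are 6 CpG and 52.4%, so the 3 windows are above them on each measure. Capicua is known to bind short octamers, of which TGAATGAA, TGAATGGA, TCAATGAA and TCAATGGA were searched on both strands. At least 1 of these words is in 3.19% of the promoters and in none of the 3 members' windows, which says only that these letters are not in this stretch.

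The deposited barcodes numbered 25907 for control, with 314453640 UMIs, and 23207 for the other library, with 252995761 UMIs. After filters and removal of doublets, 21866 and 20530 nuclei were used, with medians of 9789.5 and 8765.5 UMIs, and 175 barcode sequences occurred in both libraries. Nuclei were clustered with the members left out and named by markers, which gave 15 classes with at least 100 nuclei in each library. Cic itself had 9.07 UMIs per 1000000 in control dentate granule-like nuclei and 12.4 in those labelled knockout, so it was not lower there. Where the loxP sites lie relative to the counted tags is not given in the sources used here, so Cic is no check of the deletion. Etv4, a known target of Capicua, had 57 UMIs in control and 4289 in labelled knockout dentate granule-like nuclei, a log2 ratio of 6.73 (6.36 to 7.14), and the CA3-like ratio was 5.60 (5.00 to 6.35) and the CA1-like ratio 5.30 (4.96 to 5.68). In classes largely outside the Emx1-Cre lineage it was higher as well, at 6.03 against 31.6 UMIs per 1000000 in microglia-like nuclei, a ratio of 2.36 (1.69 to 3.15), and 2.29 against 9.22 in inhibitory-like nuclei, a ratio of 2.00 (1.55 to 2.49). The microglia-like values are from 21 and 84 UMIs. Without cluster 38, which held 28 control nuclei only, they were 14 and 84 UMIs, a ratio of 2.87 (2.09 to 3.84). No free RNA estimate was made for Etv4, and the part of free RNA in these values was not tested. Etv5, another known target, had a ratio of 5.93 (5.62 to 6.28) in dentate granule-like and 0.89 (0.61 to 1.18) in microglia-like nuclei, but -0.23 (-0.41 to -0.06) in inhibitory-like nuclei. The dentate granule-like class consisted of clusters 1 and 3, and they were filled unequally: cluster 3 held 78.2% of its control nuclei and cluster 1 held 95.6% of its nuclei from the library labelled knockout. The members' values in that class are therefore given within the clusters too.

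Levels are a gene's share of the UMIs of its class, scaled to 1000000 UMIs (CPM), and a log2 ratio is the library labelled knockout over control. A member counted as different in size when it was at least 2-fold apart with 10 CPM and 50 UMIs or more on the higher side. In CA1-like nuclei 1 of the 4 members, St8sia2, was higher by this rule, beside 3.11% of the 8160 genes counted there, and none was lower, beside 1.03%. In the other 14 classes no member passed the rule in either direction. The shares of all genes counted as higher and lower were 2.29% and 1.07% in dentate granule-like nuclei. In immature dentate granule-like nuclei they were 0.362% and 0.0213%. They were 0.34% and 0.269% in cycling progenitor-like and 0.365% and 0.461% in radial glia-like nuclei. In other neurons they were 1.23% and 0.378% in CA3-like, 2.18% and 1.06% in CA2-like, 0.913% and 0.222% in subicular or cortical excitatory-like, 2.69% and 0.13% in Cajal-Retzius-like and 0.0797% and 0.0228% in inhibitory-like nuclei. In glia they were 0.138% and 0.0954% in astrocyte-like, 0.17% and 0.0425% in oligodendrocyte precursor-like, 1.15% and 0.24% in committed oligodendrocyte precursor-like, 2.16% and 1.16% in oligodendrocyte-like and 0.157% and 1.74% in microglia-like nuclei. With a minimum of 20 UMIs and none on CPM, 2 more values were 2-fold higher, St8sia2 in subicular or cortical excitatory-like nuclei and St8sia4 in committed oligodendrocyte precursor-like nuclei. Under that minimum 290 of 13853 genes were 2-fold higher in the first class and 202 of 10488 in the second. Over the 15 classes the median log2 ratio was -0.04 for Ncam1, -0.09 for Ncam2, 0.12 for St8sia2 and 0.22 for St8sia4.

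**Figure D1:**
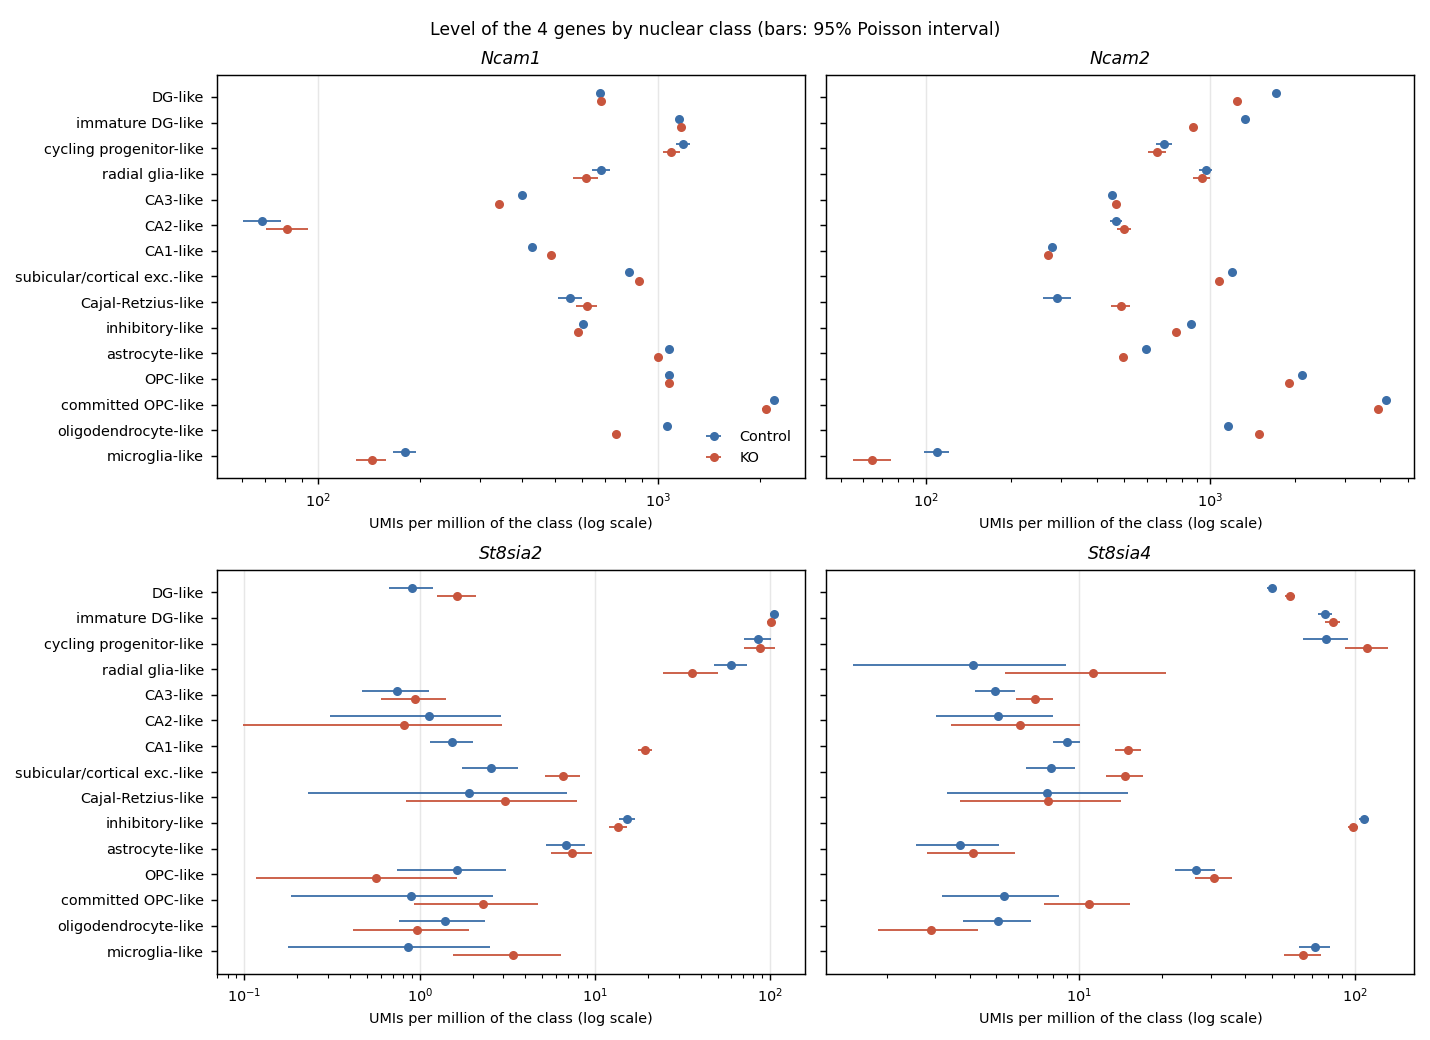
Level of Ncam1, Ncam2, St8sia2 and St8sia4 in the 15 classes, in CPM on a log axis, for the control library (blue) and the library labelled knockout (red, KO). Points are the class sums and bars their 95% Poisson intervals, each from 1 library. St8sia2 in CA1-like nuclei has the widest gap with intervals that do not overlap, 1.53 against 19.2.

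Ncam1, the main carrier of polysialic acid, was found in every class and had nearly the same level in the granule classes of both libraries. It was highest in committed oligodendrocyte precursor-like nuclei, at 2204 CPM in control and 2077 in the library labelled knockout. Immature dentate granule-like nuclei had 1158 and 1168 CPM, and mature dentate granule-like nuclei 675 and 679. Ncam1 was thus a smaller share of the UMIs in mature than in immature granule-like nuclei, while the libraries hardly differed over either class as a whole. Per nucleus the order was the reverse. There were 36550 and 25905 UMIs in 4395 and 3374 mature nuclei. Immature nuclei numbered 2595 and 2875, with 16602 and 15134 UMIs. The log2 ratios were 0.01 (-0.02 to 0.04) in the immature and 0.01 (-0.02 to 0.03) in the mature class, from 16602 and 15134 UMIs and from 36550 and 25905 UMIs. The immature clusters went opposite ways, with 0.05 (0.02 to 0.09) in cluster 0 and -0.13 (-0.19 to -0.07) in cluster 11. Within the mature class the ratio was -0.13 (-0.16 to -0.09) in cluster 1 and -0.04 (-0.12 to 0.05) in cluster 3.

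In the CA1-like, CA3-like and CA2-like classes the CPM of Ncam1 was lower than in granule neurons. Per nucleus CA1-like and CA3-like nuclei held more than immature granule-like nuclei in both libraries. CA1-like nuclei had 13923 and 10728 UMIs in 1726 and 1351 nuclei, and CA3-like nuclei 11814 and 8318 in 1249 and 1175. In control CA3-like nuclei also held more per nucleus than mature granule-like nuclei. Subicular or cortical excitatory-like nuclei, at 823 and 883 CPM, lay above mature and below immature granule-like nuclei. CA1-like nuclei had 427 CPM in control against 486, a log2 ratio of 0.19 (0.15 to 0.22). CA3-like nuclei, whose dendrites receive the mossy fibers, had 399 and 341 CPM, a log2 ratio of -0.23 (-0.27 to -0.19). The sign of the ratio thus differed between the CA1-like and CA3-like classes, and each interval left out 0. Clusters that stayed unnamed went both ways. The ratio was -0.25 (-0.29 to -0.21) in cluster 7 and -0.24 (-0.32 to -0.16) in cluster 22. It was -0.01 (-0.06 to 0.04) in cluster 12 and 0.18 (0.12 to 0.24) in cluster 14. CA2-like nuclei stood at the bottom of the order by CPM with 68.8 and 81.3, below even microglia-like nuclei at 181 and 144 CPM. Per nucleus CA2-like nuclei held more, with 244 and 200 UMIs in 147 and 118 nuclei. Microglia-like nuclei had 629 and 383 UMIs in 1520 and 1475 nuclei. Microglia-like nuclei held 0.414 and 0.260 Ncam1 UMIs per nucleus. Free RNA would give 0.320 and 0.240 by the estimate from neuronal genes in these nuclei. The class ratio of Ncam1 was -0.33 (-0.51 to -0.14). Cluster 38, with 28 control nuclei only, is part of the class and of that estimate. Within cluster 5, the rest of the class, the ratio was -0.13 (-0.33 to 0.06), from 527 and 383 UMIs.

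Among glia, oligodendrocyte-like nuclei showed the largest Ncam1 difference of any class. Their level was 1064 CPM in control against 753 CPM, from 10676 and 6245 UMIs, for a log2 ratio of -0.50 (-0.54 to -0.45). It was -0.72 in female and -0.45 in male nuclei, and -0.42 and -0.29 within clusters 9 and 18, which make up the class. Cluster 9, with 1303 CPM of Ncam1 in control against 575 CPM in cluster 18, held 75.7% of the control nuclei of the class and 62.4% of the others. Oligodendrocyte precursor-like nuclei had 1077 and 1081 CPM, and astrocyte-like nuclei 1079 and 1004, each closer between the libraries. Markers of committed precursors, the class richest in Ncam1, summed to 1292 against 1106 CPM in oligodendrocyte-like nuclei, with 1 of 6 higher in the library labelled knockout and none at 0. Of the 5 neuronal genes used to estimate free RNA, 4 could be counted there and 3 of them had a ratio below 0, with a median of -0.52. The 2 mature neuron markers that could be counted were both below 0, Grin2a at 50.6 against 19.3 CPM and Camk2a at 36.7 against 19.4 CPM. The part of these genes and of the cluster split in the Ncam1 difference was not tested. The class held 8.96 and 6.62 Ncam1 UMIs per nucleus, and the ratio was -0.52 with the free RNA estimate subtracted. Inhibitory-like nuclei, most of which lie outside the Emx1-Cre lineage, had 601 and 584 CPM.

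Among the 15 classes Ncam2 was highest by CPM in the 2 oligodendrocyte precursor classes, followed in control by granule neurons. Unnamed cluster 22, outside this order, had 1892 and 1620 CPM. Committed oligodendrocyte precursor-like nuclei had 4175 CPM in control and 3923 in the library labelled knockout, and oligodendrocyte precursor-like nuclei 2116 and 1911. Dentate granule-like nuclei came next in control with 1712 CPM against 1252 CPM, from 92656 and 47742 UMIs. Their log2 ratio was -0.45 (-0.47 to -0.44). Per nucleus dentate granule-like nuclei, numbering 4395 and 3374, held more Ncam2 than oligodendrocyte precursor-like nuclei. The latter had 11699 and 10224 UMIs in 1031 and 1128 nuclei. Immature dentate granule-like nuclei had 1336 against 873 CPM, from 19158 and 11310 UMIs, for a log2 ratio of -0.61 (-0.65 to -0.58). Both stages of the granule lineage thus held less Ncam2 in the library labelled knockout, at sizes under 2-fold. Lower Ncam2 was not confined to them: the interval lay below 0 in 9 of the 15 classes and above 0 in 3. Inhibitory-like nuclei had 860 against 760 CPM, a ratio of -0.18 (-0.21 to -0.15). Astrocyte-like nuclei had 598 against 496 CPM, a ratio of -0.27 (-0.33 to -0.21).

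The lower Ncam2 in granule neurons was seen in female and male nuclei and within each cluster of both classes. In mature granule-like nuclei it was -0.66 in female nuclei, from 28854 and 13534 UMIs, and -0.35 in male nuclei, from 43204 and 25245 UMIs. It was -0.66 (-0.69 to -0.64) in cluster 1, led by Bmp6, and -0.48 (-0.55 to -0.42) in cluster 3, led by Glis3. In the immature class it was -0.73 in cluster 0, led by Sema3c and Calb2, and -0.49 in cluster 11, led by Rasef and Glra2. Levels differed more between these 2 immature clusters than between libraries, with 773 CPM in cluster 0 and 2333 CPM in cluster 11 of the control. Immature neuron markers moved with the class: all 6 that were counted in mature granule-like nuclei had a ratio above 0, among them Dcx at 26.2 against 54.3 CPM and Igfbpl1 at 21.7 against 41.7 CPM. Within cluster 1 these 2 were at 60.7 against 55.0 CPM and 45.6 against 43.0 CPM, and Ncam2 was at 1991 against 1256 CPM. Within cluster 3 Dcx was at 17.7 against 40.9 CPM and Igfbpl1 at 15.8 against 15.5 CPM, and Ncam2 was at 1644 against 1176 CPM. Of the 4 mature neuron markers, 3 had a ratio below 0 in the mature class, with a median of -0.18. Within cluster 1 it was 1 of 4, with a median of 0.07, and within cluster 3 it was 2 of 4, with a median of 0.09. In the immature class 4 of 4 were below 0, with a median of -0.15. In cluster 0 the 3 that could be counted were below 0, with a median of -0.59, and in cluster 11 it was 2 of 4, with a median of -0.13. The part of these maturity markers in the Ncam2 difference was not tested.

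Oligodendrocyte-like nuclei went the other way for Ncam2. Their level was 1162 CPM in control against 1489 CPM, from 11662 and 12354 UMIs, for a log2 ratio of 0.36 (0.32 to 0.39). Ncam1 and Ncam2 therefore had ratios of opposite sign in the same nuclei, in female and in male nuclei and in clusters 9 and 18 alike. With the free RNA estimate subtracted the Ncam2 ratio was 0.37. Committed precursors are also the class richest in Ncam2, and their markers, given above, were lower in sum in the library labelled knockout. Cluster 18, with 888 CPM of Ncam2 in control against 1296 CPM in cluster 9, held 24.3% and 37.6% of the class, control first. The part of these markers and of the cluster split in the Ncam2 difference was not tested.

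In CA3-like and CA1-like nuclei the CPM of Ncam2 was lower than in granule neurons and closer between libraries. Per nucleus CA3-like nuclei held more than immature granule-like nuclei, with 13424 and 11439 UMIs in 1249 and 1175 nuclei. Immature granule-like nuclei had 19158 and 11310 UMIs in 2595 and 2875 nuclei. CA1-like nuclei, with 9107 and 5960 UMIs in 1726 and 1351 nuclei, held less than these in control only. CA3-like nuclei had 453 and 469 CPM, a log2 ratio of 0.05 (0.01 to 0.08), and CA1-like nuclei 279 and 270 CPM, a log2 ratio of -0.05 (-0.09 to -0.0003). Under median-of-ratios scaling the CA3-like value was -0.03, so no direction is given for it. The unnamed clusters differed more, with 957 against 765 CPM in cluster 7, a ratio of -0.32 (-0.35 to -0.29), and 308 against 201 CPM in cluster 14, a ratio of -0.62 (-0.72 to -0.51). In cluster 14 it was 0.18 (-0.03 to 0.39) in female and -0.67 (-0.82 to -0.52) in male nuclei, so the sexes did not share a direction. Cajal-Retzius-like nuclei had 289 against 486 CPM, a log2 ratio of 0.75 (0.55 to 0.95), from only 303 and 633 UMIs. With doublets kept that ratio was 0.12. In this class inhibitory neuron markers summed to 90.7 against 302 CPM, and 5 of the 8 were higher in the library labelled knockout, and their part in the ratio was not tested. Microglia-like nuclei had 109 against 64.7 CPM of Ncam2, or 0.250 and 0.117 UMIs per nucleus, below the free RNA estimates of 0.494 and 0.322.

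**Figure D2:**
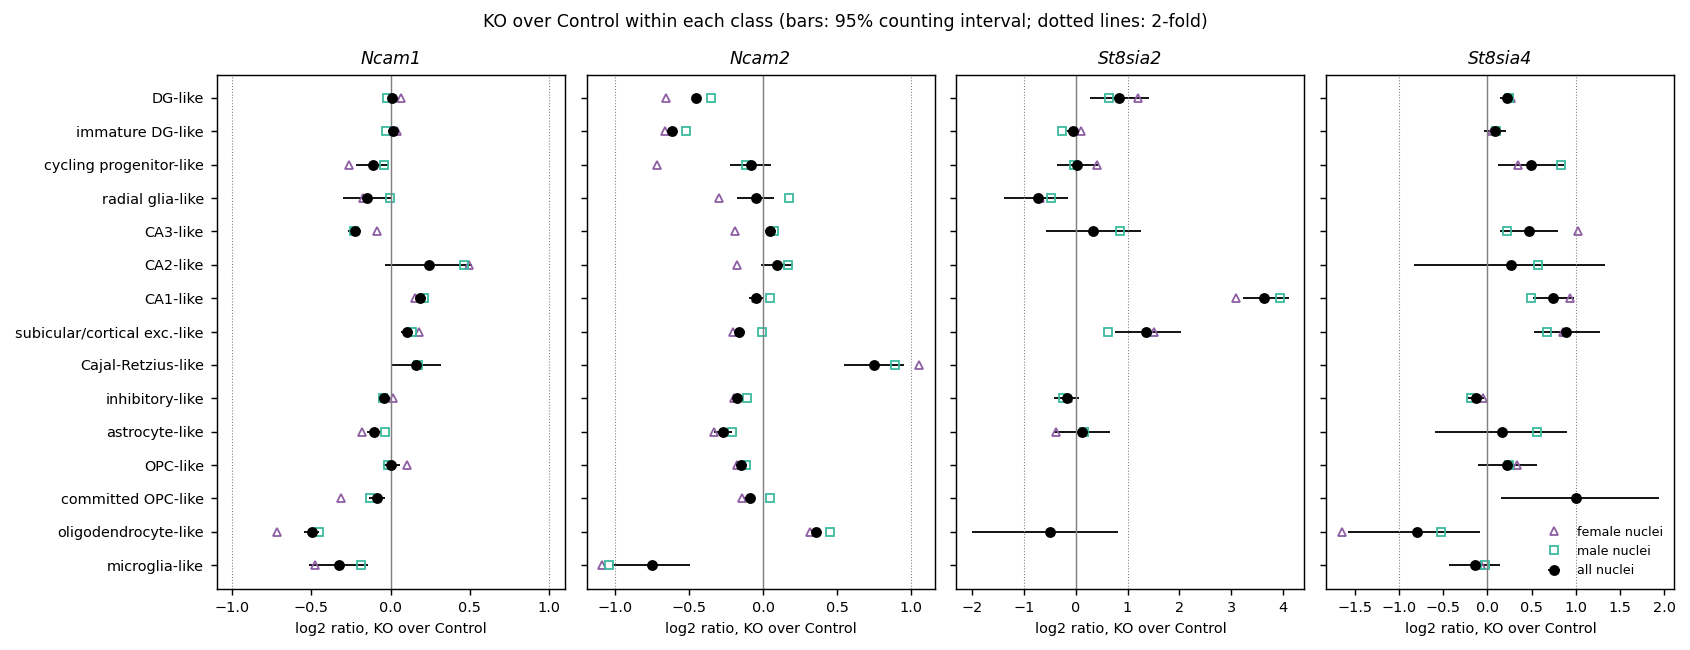
Log2 ratio of the library labelled knockout over control for each member and class. Black points are all nuclei with 95% counting intervals, triangles female and squares male nuclei, and values from fewer than 20 UMIs in the 2 libraries together are left out. Ncam2 in both granule classes lies below 0 for all, female and male nuclei, and St8sia2 in CA1-like nuclei at 3.64, 3.08 and 3.93.

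Among the 15 classes St8sia2, the polysialyltransferase of young neurons, was highest in immature granule-like, cycling progenitor-like and radial glia-like nuclei in both libraries. Immature dentate granule-like nuclei had 105 CPM in control and 101 in the library labelled knockout, cycling progenitor-like nuclei 85.2 and 87.1, and radial glia-like nuclei 59.7 and 35.8. Inhibitory-like nuclei followed with 15.2 and 13.5 CPM and astrocyte-like nuclei with 6.84 and 7.42. In control every further class was below 3 CPM, with intervals that overlapped between each class and the next. In the library labelled knockout CA1-like nuclei, at 19.2 CPM, moved ahead of inhibitory-like nuclei in this order, and the intervals of these 2 classes did not overlap. Unnamed clusters are outside this order. Of them cluster 12 had 24.8 and 73.0 CPM and cluster 14 had 13.6 and 52.3 CPM, control first. The cycling progenitor-like class consisted of clusters 20 and 31, with 85.7% and 84.3% of its nuclei in cluster 20. Of the 125 and 98 St8sia2 UMIs of that class, cluster 20 held 125 and 91, or 116 and 112 CPM.

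CA1-like nuclei carried the largest difference of the 4 genes. There were 50 St8sia2 UMIs in 1726 control nuclei against 425 in 1351 nuclei on the knockout side, or 1.53 against 19.2 CPM. The log2 ratio was 3.64 (3.23 to 4.10), with 3.08 in female nuclei, from 19 and 118 UMIs, and 3.93 in male nuclei, from 20 and 231 UMIs. At least 1 St8sia2 UMI was seen in 2.32% (1.66 to 3.14) of control nuclei and 19.4% (17.3 to 21.6) of the others, whose median depths were 18004.5 and 15912 UMIs. Microglia should lack the gene, and the shares among microglia-like nuclei were 0.132% and 0.542%, with medians of 2154.5 and 1719 UMIs. Thinned to 2000 UMIs per nucleus, the CA1-like shares were 0.463% and 3.33%. Per nucleus the CA1-like class held 0.0290 and 0.315 St8sia2 UMIs, against free RNA estimates of 0.00535 and 0.00671. With doublets kept the log2 ratio was 2.74.

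The class was named CA1-like from 7 markers, all found in each library, which summed to 989 CPM in control and 876 in the library labelled knockout. Among them Wfs1 was at 26.5 against 8.11 CPM and Spink8 at 27.2 against 48.0 CPM. Markers of immature granule neurons, the cells richest in St8sia2, summed to 54.5 against 116 CPM in the CA1-like class, with 5 of 7 higher and none at 0. Dcx, a microtubule protein of migrating neurons, was at 12.9 against 48.2 CPM and Sox11, a factor of young neurons, at 11.9 against 38.8 CPM. The other 5 differed less in level: Sema3c was at 9.83 against 7.34 CPM, Igfbpl1 at 9.77 against 10.9 CPM, and Bhlhe22, Neurod1 and Draxin were each below 7 CPM in both libraries. Stmn1 was at 10.7 against 18.2 CPM and Tubb3, a tubulin of neurons, at 34.3 against 48.9 CPM. Of the 4 mature neuron markers 3 had a ratio below 0, with a median of -0.27, among them Calb1 at 21.4 against 11.2 CPM and Grin2a at 3778 against 2903 CPM. Inhibitory markers summed to 23.3 against 29.1 CPM. The part of these genes in the St8sia2 difference was not tested.

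Clusters 7, 12 and 14, which stayed unnamed, had the same direction for St8sia2. In cluster 7, whose 10 leading genes include Dcn, Pde11a and Cpne7, it was at 1.20 against 11.7 CPM, from 25 and 226 UMIs, for a log2 ratio of 3.26 (2.68 to 3.94). In cluster 12, with Fn1, Teddm3 and Ndst4 among its leading genes, it was already at 24.8 CPM in control and reached 73.0 CPM, from 358 and 830 UMIs, for a log2 ratio of 1.56 (1.38 to 1.74). There the share of nuclei with a UMI was 24.2% against 57.9%. In cluster 14, led by Npsr1 and Tecta, it was at 13.6 against 52.3 CPM, from 86 and 319 UMIs, for a log2 ratio of 1.94 (1.60 to 2.31). The direction was shared by female and male nuclei in each of these clusters. In each of them St8sia2 was the 1 member of 4 counted as higher and none was lower, beside 2.34% of all genes higher and 0.574% lower in cluster 7, 2.34% and 0.854% in cluster 12 and 2.48% and 1.06% in cluster 14. Immature granule markers summed to 91.9 against 138 CPM in cluster 7, 77.2 against 140 CPM in cluster 12 and 130 against 138 CPM in cluster 14.

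Cluster 22, also unnamed, differed from them. Led by C1qtnf7, Cpa6 and Prlr, it had St8sia2 at 3.37 against 3.81 CPM, from 15 and 27 UMIs, for a log2 ratio of 0.16 (-0.79 to 1.19). Etv4 was at 1.80 against 111 CPM there. Subicular or cortical excitatory-like nuclei had 2.55 against 6.59 CPM, from 31 and 77 UMIs, for a log2 ratio of 1.36 (0.75 to 2.02). Most of those UMIs came from cluster 17, with 4.08 against 10.4 CPM and 24 and 62 UMIs. There St8sia2 and St8sia4 were 2 of 4 members counted as higher, beside 1.65% of all genes, and none was lower, beside 0.41%. In cluster 17 the St8sia2 ratio was 1.58 (0.44 to 3.09) in female nuclei and 0.22 (-0.91 to 1.35) in male nuclei, from 15 and 15 UMIs. The St8sia4 ratio was 1.05 (0.33 to 1.87) in female and 0.60 (-0.17 to 1.40) in male nuclei, so neither gene was 2-fold higher in male nuclei.

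**Figure D3:**
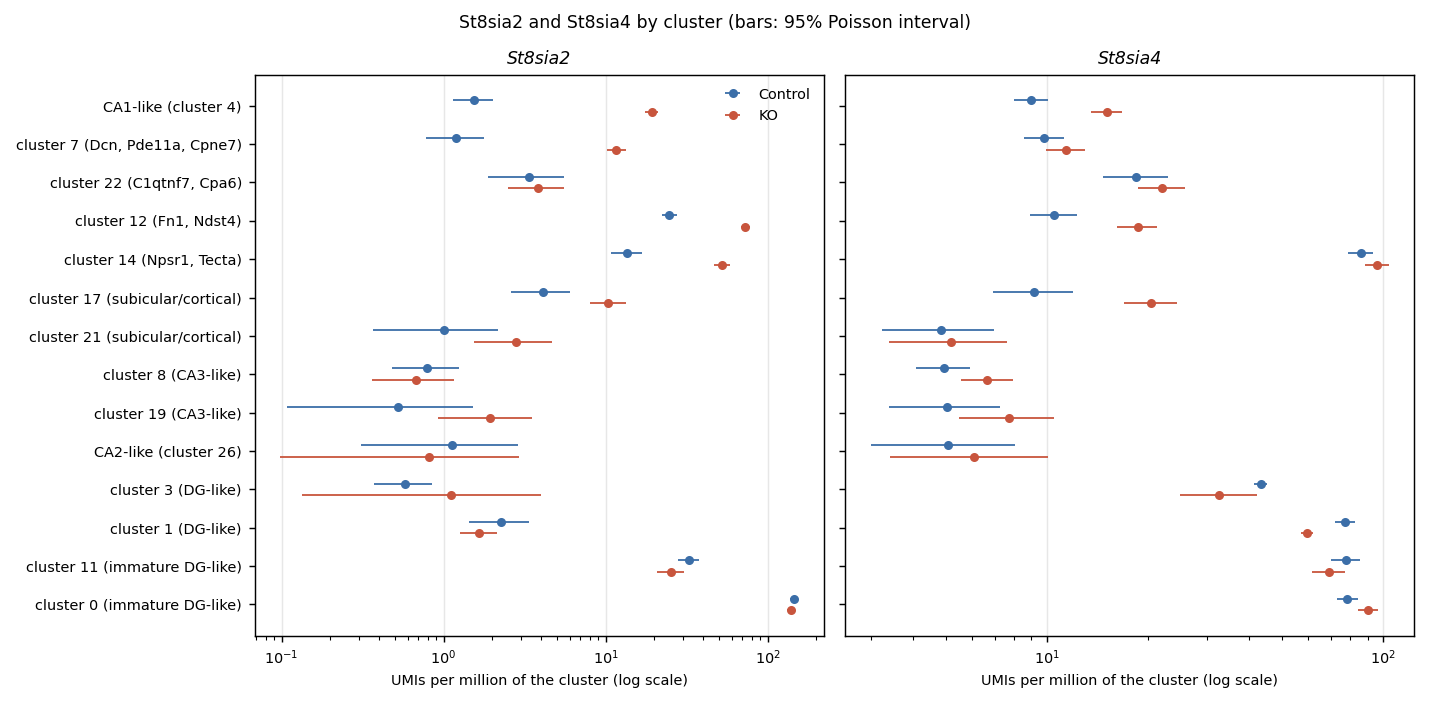
St8sia2 (left) and St8sia4 (right) in CA1-like, unnamed, subicular or cortical, CA3-like, CA2-like and granule-like clusters, in CPM on a log axis, control in blue and library labelled knockout in red. Bars are 95% Poisson intervals. The gap for St8sia2 is widest in the CA1-like cluster (1.53 and 19.2) and cluster 7 (1.20 and 11.7), and the intervals overlap in cluster 22 and in both CA3-like clusters.

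In CA3-like nuclei, the target of the mossy fibers, St8sia2 stayed near the lower end in both libraries. There were 22 and 23 UMIs, or 0.743 and 0.942 CPM, and the log2 ratio of 0.34 (-0.57 to 1.26) held 0. The difference between the CA1-like and CA3-like ratios was not tested, since each is from 1 pair of libraries, but their intervals do not overlap. Within CA3-like cluster 19 the ratio was 1.73 (-0.08 to 4.38), from 3 and 10 UMIs, and that interval does overlap the CA1-like one. Within CA3-like cluster 8 it was -0.22 (-1.37 to 0.86), from 19 and 13 UMIs. Mature dentate granule-like nuclei had 49 and 62 UMIs, or 0.906 and 1.63 CPM, a log2 ratio of 0.84 (0.28 to 1.42). That level was 0.0111 and 0.0184 UMIs per nucleus, within a few times the free RNA estimates. Within cluster 1 the ratio was -0.47 (-1.15 to 0.30), from 24 and 60 UMIs. Within cluster 3 it was 1.24 (-2.18 to 2.95), from 25 and 2 UMIs. The clusters had opposite signs and both intervals held 0, so no direction is given for St8sia2 in mature granule neurons.

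In the immature granule class, where it is highest, St8sia2 did not differ beyond counting error over all nuclei. Immature dentate granule-like nuclei had 1503 and 1305 UMIs, and the log2 ratio of -0.06 (-0.17 to 0.05) left at most a small difference at this depth. The share of these nuclei with a UMI was 37.3% (35.4 to 39.2) in control and 30.9% (29.2 to 32.6) in the library labelled knockout. Those nuclei were shallower in the library labelled knockout, with medians of 4787 and 3788 UMIs, and at 2000 UMIs per nucleus the shares were 21.2% (19.6 to 22.9) and 18.9% (17.4 to 20.4). The ratio was 0.11 (-0.08 to 0.29) in female and -0.27 (-0.45 to -0.09) in male nuclei, so it had no shared direction. The male interval left out 0 and the female interval held it. Cluster 0 had 145 and 140 CPM, and cluster 11 had 32.7 and 25.3 CPM with a ratio of -0.37 (-0.73 to -0.02). Radial glia-like nuclei had 87 and 32 UMIs, for a log2 ratio of -0.73 (-1.37 to -0.14). It was -0.69 (-2.24 to 0.54) in female nuclei, from 20 and 7 UMIs. In male nuclei it was -0.48 (-1.37 to 0.33), from 40 and 19 UMIs, so the interval of each sex held 0.

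St8sia4, the polysialyltransferase that persists in the adult brain, had a different distribution over cells. In control it was highest in inhibitory-like nuclei at 108 CPM, followed by cycling progenitor-like, immature dentate granule-like and microglia-like nuclei at 78.3, 78.1 and 71.5 CPM, whose intervals overlap. Dentate granule-like nuclei had 49.9 CPM and oligodendrocyte precursor-like nuclei 26.4 CPM, and each other class was below 10 CPM. This order too leaves out the unnamed clusters. Of them cluster 14 had 85.9 and 95.8 CPM, cluster 22 had 18.4 and 22.0 CPM and cluster 12 had 10.5 and 18.6 CPM, control first. Unlike St8sia2, St8sia4 was thus kept in mature granule neurons, with a UMI in 37.1% of their control nuclei. Its level in microglia-like nuclei was 0.164 UMIs per nucleus in control and 0.117 in the library labelled knockout, above the free RNA estimates of 0.0160 and 0.0135. The share of microglia-like nuclei with a St8sia4 UMI was 12.7% and 9.29%, and 10.6% and 10.7% at 2000 UMIs per nucleus.

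In mature granule neurons the St8sia4 ratio depended on how nuclei were grouped. Over the class there were 2702 and 2218 UMIs, or 49.9 and 58.2 CPM, a log2 ratio of 0.22 (0.14 to 0.30), with 0.27 in female and 0.24 in male nuclei. Within cluster 1 the levels were 77.1 against 59.4 CPM, a ratio of -0.38 (-0.49 to -0.26), and within cluster 3 they were 43.3 against 32.6 CPM, a ratio of -0.40 (-0.81 to -0.03). The ratio thus had the opposite sign inside each cluster, and most control nuclei were in cluster 3, the cluster with the lower level. Dcx followed the same order in control, with 60.7 CPM in cluster 1 and 17.7 CPM in cluster 3. No direction is therefore given for St8sia4 in mature granule neurons. Immature dentate granule-like nuclei had 78.1 and 83.0 CPM, a ratio of 0.09 (-0.03 to 0.21). Their clusters had opposite signs, with 0.20 (0.06 to 0.35) in cluster 0 and -0.17 (-0.39 to 0.05) in cluster 11.

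St8sia4 was higher in 3 excitatory classes of the library labelled knockout, at sizes under 2-fold over all nuclei. CA1-like nuclei had 294 and 333 UMIs, or 9.01 against 15.1 CPM, a log2 ratio of 0.74 (0.51 to 0.98), with 0.93 in female and 0.50 in male nuclei. CA3-like nuclei had 147 and 168 UMIs, or 4.96 against 6.88 CPM, a log2 ratio of 0.47 (0.14 to 0.80). There the ratio was 1.02 (0.41 to 1.65) in female and 0.22 (-0.24 to 0.69) in male nuclei, whose interval held 0. Subicular or cortical excitatory-like nuclei had 96 and 171 UMIs, or 7.88 against 14.6 CPM, a log2 ratio of 0.89 (0.52 to 1.27). In cluster 17 of that class it was at 9.19 against 20.5 CPM, and in cluster 21 at 4.84 against 5.20 CPM, so the difference lay mainly in cluster 17. Cluster 12 had 10.5 against 18.6 CPM, a ratio of 0.83 (0.52 to 1.14). The interval held 0 in cluster 7, with 9.83 against 11.4 CPM, and in cluster 14, with 85.9 against 95.8 CPM, although St8sia2 was higher in both of these clusters. Of the immature neuron markers that could be counted, 3 of 4 had a ratio above 0 in CA3-like nuclei, with a median of 0.40. In subicular or cortical excitatory-like nuclei it was 4 of 6, with a median of 0.19. The part of these markers in the St8sia4 ratios was not tested.

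Inhibitory-like nuclei, largely outside the Cre lineage, had a St8sia4 ratio of -0.13 (-0.22 to -0.04) from 2348 and 1869 UMIs, and of -0.17 (-0.41 to 0.07) for St8sia2 from 332 and 257 UMIs. Their clusters differed in level more than the libraries did. The Adarb2 and Vip cluster had 65.4 and 61.5 CPM of St8sia4, against 122 and 111 CPM in the Lhx6 and Pvalb cluster and 128 and 126 CPM in the Lamp5 and Hapln1 cluster. Cycling progenitor-like nuclei had 115 and 124 St8sia4 UMIs, or 78.3 against 110 CPM, a ratio of 0.49 (0.12 to 0.87). In oligodendrocyte-like nuclei St8sia4 was at 5.08 against 2.89 CPM from 51 and 24 UMIs, and in committed precursors at 5.34 against 10.8 CPM from 18 and 33 UMIs. The first is under 2-fold and under 10 CPM, and the second has fewer than 50 UMIs, so neither meets the size rule.

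**Figure D4:**
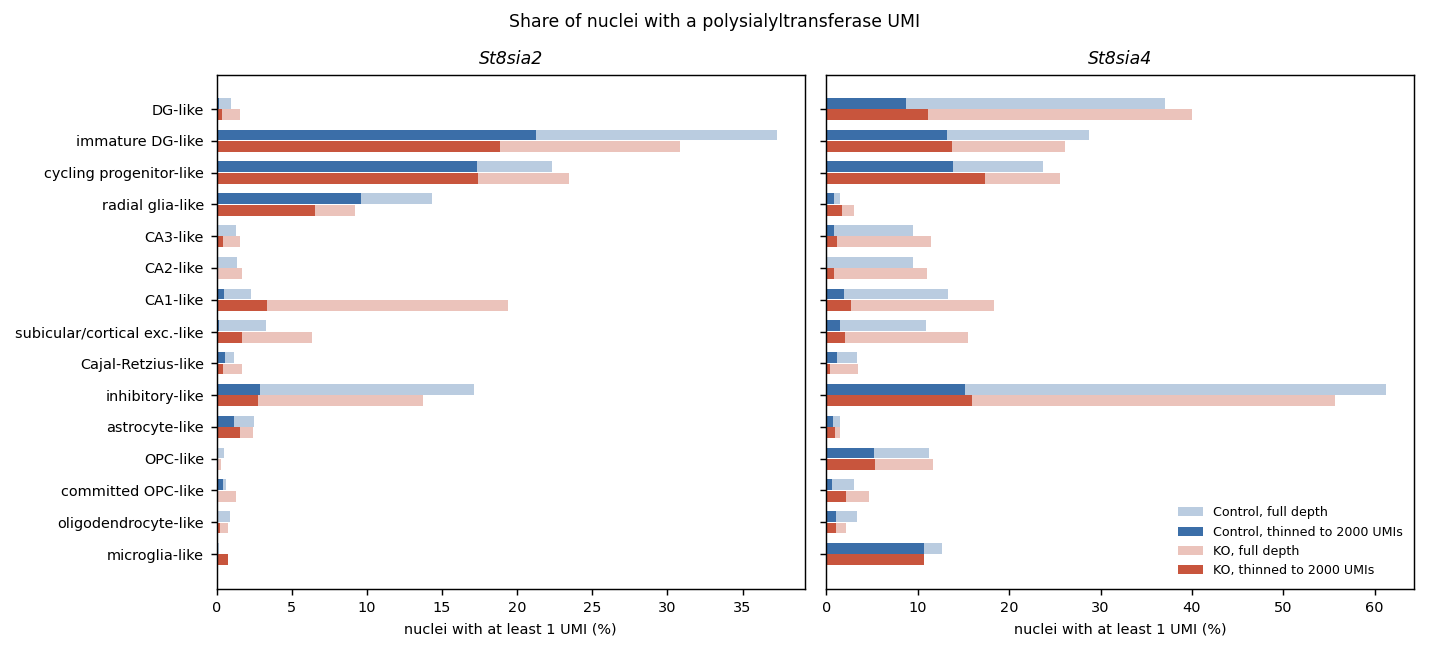
Share of nuclei with at least 1 UMI of St8sia2 (left) or St8sia4 (right) by class, control in blue and library labelled knockout in red. Pale bars are the full depth and dark bars nuclei thinned to 2000 UMIs, which leaves out shallower nuclei. CA1-like nuclei go from 2.32% to 19.4% for St8sia2 and from 13.3% to 18.4% for St8sia4 at full depth.

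How often the 2 enzymes were seen in the same nucleus varied between classes. In control immature dentate granule-like nuclei 26.2% had a UMI of St8sia2 only, 17.7% of St8sia4 only and 45.0% of neither, and in the library labelled knockout 22.5%, 17.7% and 51.4%. Both were seen in 11.02% and 8.35% of these immature nuclei. Mature dentate granule-like nuclei had almost only St8sia4, with 36.6% and 39.4% of nuclei against 0.410% and 0.919% for St8sia2 only. CA1-like nuclei moved from 1.85% to 15.5% with St8sia2 only and from 12.8% to 14.4% with St8sia4 only. Both enzymes were seen in 0.463% of control CA1-like nuclei and 3.92% of those on the knockout side. Inhibitory-like nuclei had 11.4% and 8.70% with both, cluster 12 had 4.44% and 16.4%, and cluster 14 had 8.0% and 21.5%. All of these shares depend on depth, and a nucleus without a UMI may still hold the transcript.

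Across the 15 classes the 2 adhesion genes had similar patterns and the enzymes less so. The Pearson correlation of log2(CPM + 1) over 15 classes, given as a description, was 0.69 in control and 0.70 in the library labelled knockout for Ncam1 with Ncam2. It was 0.38 and 0.50 for St8sia2 with St8sia4, 0.33 and 0.31 for Ncam1 with St8sia2, and 0.05 and 0.11 for Ncam1 with St8sia4. The points share their libraries and depth.

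Genes with the most similar pattern over the 15 control classes were taken as the 5 highest correlations per member. For Ncam1 the nearest was Gm11149, at 0.97 in control and 0.95 in the library labelled knockout, followed by Arhgap32, Rab23, Ranbp17 and Gtf3c1. Gm11149 is annotated on the opposite strand of Ncam1, and whether the counting used strand is not given in the sources used here, so their reads may not be separate. For Ncam2 they were Cfap47 at 0.84 and 0.78, Kazn, Slc22a23, Mapre3 and Shisal1. For St8sia2 they were Wnt5a at 0.90 and 0.79, Ptx3, Adamts19, Erich2 and Sema3c, the last a marker of the immature granule class. For St8sia4 they were Cygb at 0.85 and 0.56, Gad1 at 0.82 and 0.80, Phtf2, Dcaf7 and AI504432. Gad1 makes the transmitter GABA and is a known marker of inhibitory neurons, the class with the highest St8sia4 level in control.

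The other genes of the pathway were described from 6 lists of 30 genes in all, covering sialic acid supply, other ST8 sialyltransferases, other carriers of polysialic acid, the L1 family, NCAM partners, and sheddases and sialidases. In dentate granule-like nuclei 22 of the 30 could be counted and none was 2-fold apart, beside 2.29% of all genes higher and 1.07% lower. Their median log2 ratio was 0.06, against 0.02 over all genes, with 14 above 0 and 8 below. Within cluster 1 the median was -0.01, with 10 above 0 and 12 below, and within cluster 3 it was 0.02, with 13 above and 9 below. In CA3-like nuclei 25 could be counted and none was 2-fold apart, beside 1.23% higher and 0.378% lower, with medians of 0.11 and 0.07. In CA1-like nuclei 24 could be counted, 1 was higher and 1 lower, beside 3.11% and 1.03% of all genes, with medians of 0.12 and 0.09. A count of 1 among 24 genes is too small to set apart from these shares.

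The CA1-like gene that was higher is Fgfr1, a receptor through which NCAM signals, at 41.8 against 88.1 CPM, a log2 ratio of 1.07 (0.97 to 1.17). Under median-of-ratios scaling it was no longer 2-fold apart. The one that was lower is St8sia6, a sialyltransferase that does not build polysialic acid on NCAM, at 10.5 against 3.76 CPM from 344 and 83 UMIs, for a log2 ratio of -1.48 (-1.85 to -1.14). Fgfr1 was also at 36.0 against 65.7 CPM in dentate granule-like nuclei, a ratio of 0.87 (0.78 to 0.95), with 0.68 within cluster 1 and 0.92 within cluster 3, and at 62.6 against 96.1 CPM in CA3-like nuclei, a ratio of 0.62 (0.53 to 0.71). In CA3-like nuclei Gap43, a growth cone protein that acts downstream of NCAM, was at 30.3 against 60.4 CPM, just under the 2-fold limit. Chl1 of the L1 family had ratios of 0.66 in the CA3-like class and 0.58 in the CA1-like class. In dentate granule-like nuclei its ratio was 0.36, but -0.02 (-0.06 to 0.03) within cluster 1 and 0.17 (0.05 to 0.28) within cluster 3. All 4 genes of the L1 family had a ratio below 0 within cluster 1, so no direction is given for Chl1 in granule neurons.

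Of the genes that make and activate sialic acid, 3 of 5 could be counted in each of these classes. Gne, the first enzyme of sialic acid synthesis, was at 17.5 and 17.1 CPM in dentate granule-like nuclei and at 19.2 and 18.0 CPM in CA1-like nuclei. Cmas, which activates sialic acid for transfer, was at 29.3 and 34.6 CPM in CA1-like nuclei, a ratio of 0.24 (0.10 to 0.38), and Slc35a1, the transporter into the Golgi, at 24.3 and 23.4 CPM. These 3 transcripts were thus close between the libraries in the class where St8sia2 differed most. Of the other carriers of polysialic acid, Nrp2 was at 143 against 230 CPM in dentate granule-like nuclei, a ratio of 0.69 (0.64 to 0.73), with 0.38 within cluster 1 and 0.59 within cluster 3. Cadm1 was at 740 against 832 CPM, a ratio of 0.17, but -0.09 within cluster 1 and 0.04 within cluster 3.

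**Figure D5:**
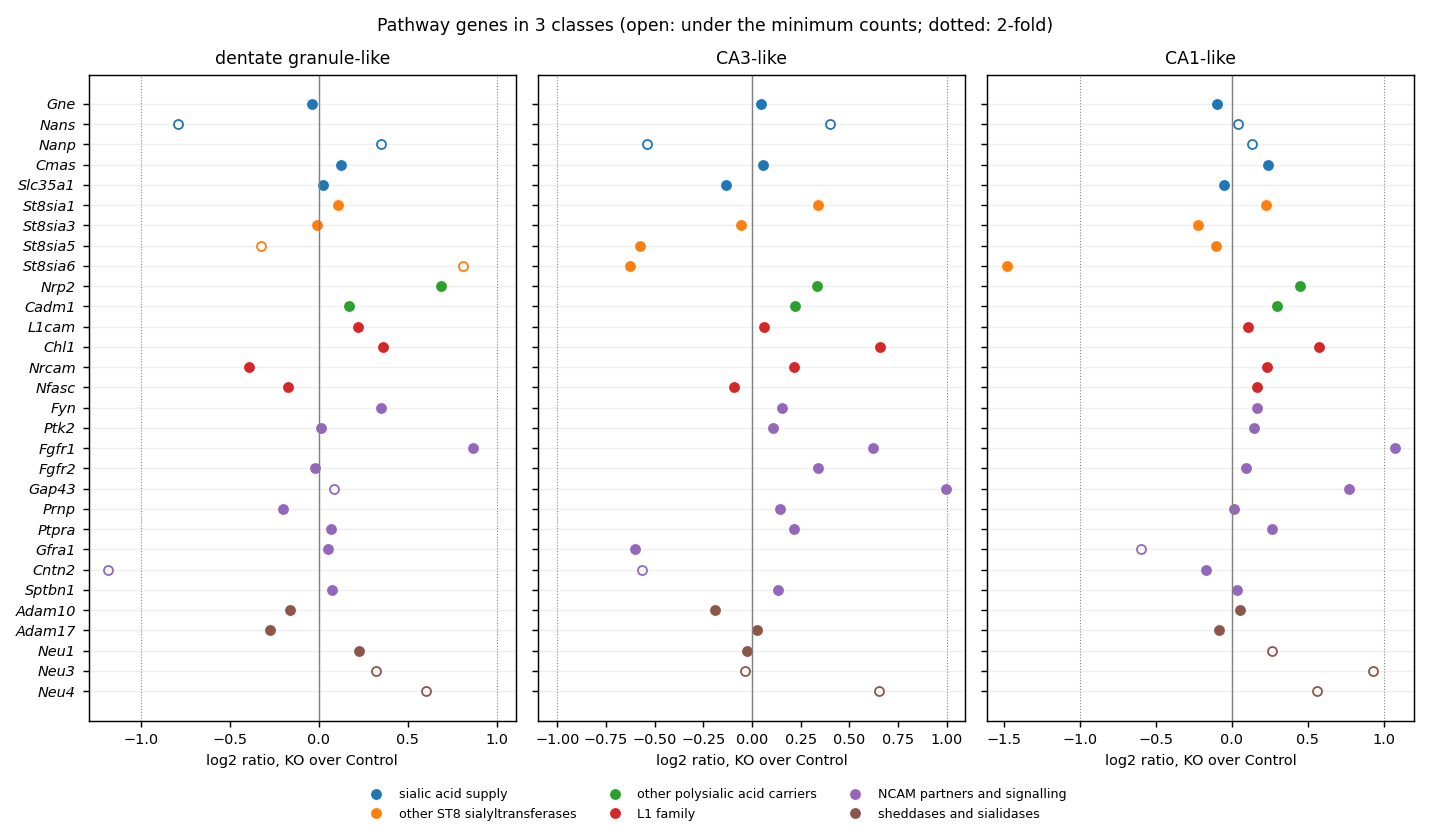
Log2 ratio of the library labelled knockout over control for the 30 pathway genes in CA3-like, CA1-like and dentate granule-like nuclei, coloured by list. Open points are genes under the minimum of 50 UMIs and 10 CPM, and dotted lines mark 2-fold. Of the filled points only Fgfr1 (1.07) and St8sia6 (-1.48) in CA1-like nuclei lie beyond 2-fold.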

How the data were processed

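Each matrix deposited by the authors gives raw UMI counts for every gene in every barcode, not normalized, made with Cell Ranger 8.0.1 per the file headers and on mm39 per the submitters' processing notes. Introns and strand settings are not given in the sources used here. GENCODE M21 (GRCm38) matched 31961 of the 33696 gene identifiers and served for overlaps and Y-linked genes, and promoters came from RefSeq.

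A minimum of 500 genes and a maximum of 5% mitochondrial UMIs kept 25060 control nuclei and 23043 of the library labelled knockout. Doublets (3194 and 2513) were removed as called by Scrublet (scanpy 1.11.5, expected rate 0.1). Both libraries were clustered together (3000 variable genes, 30 principal components, 15 neighbours, Leiden resolution 1 with leidenalg 0.10.2) without the members, the pathway lists, Xist, Tsix, Y-linked and mitochondrial genes. Clusters were named "X-like" from 21 marker sets, and 11.5% and 13.1% of nuclei stayed unnamed. Summed UMIs per class were scaled to CPM, and log2 ratios had 0.5 UMI added to each sum. Intervals are exact Poisson for levels, conditional binomial for ratios and Clopper-Pearson for shares. They treat UMIs as independent molecules. Free RNA was estimated at 4.01% and 3.44% of a mean nucleus from neuronal genes in microglia-like nuclei. Female nuclei had at least 2 Xist and no Y-linked UMIs, male nuclei the reverse with at least 1 Y-linked UMI, and by the labels the female nuclei came from 1 mouse per library and the male nuclei from 2.

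The members, lists and markers were chosen with earlier results of these data known. Named genes were the members, pathway genes at least 2-fold apart in the 3 main classes, the 5 genes most like each member in pattern, and Cic and its known targets. Pathway genes named for other values were chosen after these were seen. The ratio and scaling steps were tested on simulated data.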

Additional observations from a re-analysis of the deposited data

Results flagged for a closer look

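Ncam2 had ratios of opposite sign in female and male nuclei in 3 groups where each interval left out 0. By the labels the female nuclei come from 1 mouse and the male nuclei from 2 mice in each library, so sex and animal cannot be told apart, and the difference between the sexes was not tested. In CA3-like nuclei the log2 ratio of the library labelled knockout over control was -0.19 in female nuclei, from 5180 and 2759 UMIs, and 0.07 in male nuclei, from 5405 and 6099 UMIs. Median-of-ratios scaling moves every ratio of the CA3-like class by -0.079, which is more than the male value, so the opposite sign there holds only under scaling to total UMIs. In inhibitory cluster 15, the Adarb2 and Vip cluster, it was 0.10 (0.007 to 0.20) in female and -0.29 in male nuclei, and the same scaling moves the inhibitory-like class by -0.049. In inhibitory cluster 23, the Lamp5 and Hapln1 cluster, it was 0.40 in female and -0.27 in male nuclei. Female and male nuclei had the same sign of the Ncam2 ratio in 10 of the 15 classes, against 11 for Ncam1, 10 for St8sia2 and 13 for St8sia4.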

How the results depend on the processing

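St8sia2 in CA1-like nuclei was at least 2-fold higher under all 11 alternatives, with its lowest log2 ratios at 2.74 with doublets kept, 2.90 after thinning and 3.08 in female nuclei (3.64 in all). St8sia4 there (0.74) was 0.51 with doublets kept and 0.50 in male nuclei. Ncam1 there (0.19) was 0.089 with median-of-ratios and 0.090 with TMM factors, 0.15 with doublets kept and 0.23 after thinning. Ncam2 there (-0.05) was -0.15 with either scaling, -0.18 with doublets kept, 0.047 in male nuclei and 0.014 after thinning.

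In dentate granule-like nuclei Ncam2 (-0.45) was -0.48 with either scaling, -0.66 in female and -0.35 in male nuclei, and -0.66 and -0.48 within clusters 1 and 3. Ncam1 (0.01) was -0.019 with median-of-ratios and -0.021 with TMM factors, 0.064 in female and -0.021 in male nuclei, and -0.13 and -0.037 within clusters 1 and 3. St8sia2 (0.84) was 0.25 with doublets kept, 1.20 in female and 0.65 in male nuclei, and -0.47 and 1.24 within clusters 1 and 3. It was at least 2-fold higher under 5 of 13 alternatives. St8sia4 (0.22) was 0.31 after thinning, -0.38 within cluster 1 and -0.40 within cluster 3.

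In CA3-like nuclei Ncam1 (-0.23) was -0.31 with either scaling, -0.086 in female nuclei and -0.11 within cluster 19. Ncam2 (0.05) was -0.031 with median-of-ratios and -0.036 with TMM factors, 0.0082 with equal weight per nucleus, -0.0057 with doublets kept, -0.19 in female nuclei and 0.20 within cluster 19. St8sia2 (0.34) was -0.86 in female nuclei, 1.96 after thinning and 1.73 within cluster 19. St8sia4 (0.47) was 1.02 in female nuclei.

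With a minimum of 20 UMIs in place of 50 UMIs and 10 CPM, 976 genes in place of 283 were 2-fold apart in dentate granule-like, 560 in place of 132 in CA3-like and 1014 in place of 338 in CA1-like nuclei. Pathway genes 2-fold apart went from 0 to 1 in dentate granule-like nuclei, and from 2 to 1 in CA1-like nuclei under median-of-ratios scaling. Thinned to 2000 UMIs, the share of nuclei with a St8sia2 UMI was 0.182% and 0.386% in dentate granule-like, 0.0801% and 0.426% in CA3-like and 0.463% and 3.33% in CA1-like nuclei, control first. For St8sia4 it was 8.74% and 11.1%, 0.801% and 1.11%, and 1.91% and 2.74%. Thinning lowers shares by its construction, and the cause of the other moves was not tested. Scaling moved the median of all genes by over 0.1 only in CA2-like nuclei, by -0.12, and the share of higher calls from 67.3% to 54.5% there and from 65.1% to 75.8% in oligodendrocyte-like nuclei.

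The values within single clusters, the minimum of 20 UMIs for the 4 genes themselves, and microglia-like nuclei without a cluster of control nuclei only, were chosen after seeing the data. No paired analysis was possible because each group is 1 library. For the same reason no alternative leaves out a replicate.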
